A study of Mus musculus with 9 samples.

Results

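Cells detect DNA in the cytosol through a small set of proteins, and 10 of their genes are described here out of the 46603 gene identifiers in each library: Cgas, Tmem173, Trex1, Aim2, Ifi203, Ifi204, Ifi205, Mndal, Polr3a and Ddx41. They were chosen by name as genes of cytosolic DNA sensing, and all 10 symbols were matched to Ensembl identifiers through the GENCODE M21 annotation of GRCm38. The libraries came from mouse embryonic fibroblasts of the BALB/c strain, taken from embryos of day 10.5 and carrying a β-actin knockout. The mock group (3 libraries) received Lipofectamine 2000 in Opti-MEM alone, the poly(dA:dT) group (3 libraries) received this synthetic double-stranded DNA at 10 ug/ml, and the poly(I:C) group (3 libraries) received this synthetic double-stranded RNA at 10 ug/ml, each for 6 h. Every group, mock included, carried the Actb knockout, the cells were a line supplied by another laboratory, and wild-type cells were not analysed here. RNA was sequenced from whole cultures, in which fewer cells of a type and less RNA per cell cannot be told apart.

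In the textbook pathway, cGAS binds double-stranded DNA and makes the messenger cGAMP, which activates the adaptor STING (encoded by Tmem173), and STING recruits the kinase TBK1 to the transcription factor IRF3 to turn on interferon β. RNA polymerase III offers a second route: it transcribes AT-rich DNA such as poly(dA:dT) into RNA that the RNA sensor RIG-I (Ddx58) detects. PYHIN proteins (AIM2 and the mouse Ifi200 family) bind DNA as well, AIM2 forms an inflammasome with ASC (Pycard) and caspase-1, and the exonuclease TREX1 removes cytosolic DNA. Poly(I:C) is read by the RNA sensors MDA5 (Ifih1) and RIG-I.

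Assigned counts ranged from 16082772 to 29219797 per library, so a gene with 0 counts could still stand at up to 3 counts, or 0.107 to 0.18 CPM (reads of a gene relative to the library total, scaled by TMM). The knocked-out gene Actb stood at 33.3 ± 1.29, 30.6 ± 1.29 and 32.4 ± 1.34 CPM in the mock, DNA mimic and RNA mimic groups (SD, n = 3), with no call in any comparison. The sources used here do not give the deleted exons, so these counts do not test the labels. The summed level of 10 fibroblast markers ranged from 7530 to 7700 CPM in mock, 7260 to 7390 after poly(dA:dT) and 6470 to 6770 after poly(I:C), with 1 count of Lum in all 9 libraries. Both treatments raised the interferon transcript: Ifnb1, which encodes interferon β, had 1 count in all of mock. It stood at 4.86 ± 0.789 CPM after poly(dA:dT), against 88.2 ± 5.6 CPM in the poly(I:C) group.

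The clearest shared feature of the sequences lay upstream of the PYHIN genes, which sit side by side on chromosome 1. Windows of RefSeq transcription starts (GRCm38.p6, 250 bases before to 50 after each start) were found for 7 of the 10 genes and for 8 of 9 other PYHIN genes. Ifi204, Polr3a and Tmem173 had no entry. Each window was searched on both strands for GAAA, any 2 bases and GAAA again, a core of the interferon-stimulated response element (ISRE) to which IRF and ISGF3 factors bind. Of the 32851 windows in the table, 1131 (3.44%) held it. Among PYHIN genes 9 of 12 with a window held it, in 10 of 14 windows, while Cgas, Trex1 and Ddx41 held it in 0 of 4 windows. Among the studied PYHIN genes, Ifi203, Ifi205 and Mndal held it and Aim2 did not.

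The following 60-base stretches are shown because the sequence around the core is shared among them. The core is in capitals with 25 bases on each side, written 5′ to 3′ on the gene's strand. The first 5 belong to genes that had enough counts to test.

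Ifi203, chr1:173942493-173942552, minus strand: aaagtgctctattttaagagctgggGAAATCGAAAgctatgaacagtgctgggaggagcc

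Mndal, chr1:173880189-173880248, minus strand: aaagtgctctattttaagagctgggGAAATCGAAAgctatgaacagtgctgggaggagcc

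Ifi205, chr1:174031855-174031914, minus strand: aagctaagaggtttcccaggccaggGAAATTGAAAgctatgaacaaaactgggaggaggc

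Ifi211, chr1:173913049-173913108, minus strand: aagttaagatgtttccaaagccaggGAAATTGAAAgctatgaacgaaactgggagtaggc

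Ifi207, chr1:173741816-173741875, minus strand: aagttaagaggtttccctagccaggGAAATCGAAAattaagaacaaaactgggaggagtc

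The other 4 belong to PYHIN genes at or near 0 counts in these libraries, and they carry the core too.

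Ifi206, chr1:173491324-173491383, minus strand: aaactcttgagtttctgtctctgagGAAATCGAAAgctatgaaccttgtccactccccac

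Ifi208, chr1:173673582-173673641, plus strand: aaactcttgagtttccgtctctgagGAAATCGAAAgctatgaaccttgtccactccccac

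Ifi213, chr1:173599311-173599370, minus strand: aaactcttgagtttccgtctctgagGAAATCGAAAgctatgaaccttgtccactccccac

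Ifi214, chr1:173536002-173536061, minus strand: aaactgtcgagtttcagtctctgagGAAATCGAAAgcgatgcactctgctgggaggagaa

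The stretches of Ifi203 and Mndal were identical in 60 of 60 bases although they lie at separate places, and so were those of Ifi208 and Ifi213. Ifi205 shared 54 of 60 bases with Ifi211 and 52 with Ifi207, but 40 with Ifi203. In all 9 stretches 21 positions were the same, of which 8 were fixed by the search for the core and 13 were not. The most frequent form, GAAATCGAAA, was picked out after these sites were seen. It occurred in 16 of the 32851 windows (0.0487%), and 7 of those 16 were PYHIN windows. The core began 35 bases before a listed start of Ifi203 and 36 before a listed start of Mndal. It began 41 bases before the start of Ifi207, 37 before that of Ifi211 and 134 before that of Ifi205. Another window of Ifi203, chr1:173942623-173942922, held no core. The start in that window is the start of the GENCODE model of Ifi203, so the printed Ifi203 core lies inside the model. The Ifi205 window held a second match after the start, and a second Mndal window held a match on the other strand, 54 bases before its own start.

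Cgas and Ifi202b are shown for contrast, with the 250 bases before their starts. Neither holds the core, and in Ifi202b the capitals mark a match to TTCNNNGAA, the GAS element to which STAT factors bind, which 8.3% of all windows held.

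Cgas, chr9:78443238-78443487, minus strand: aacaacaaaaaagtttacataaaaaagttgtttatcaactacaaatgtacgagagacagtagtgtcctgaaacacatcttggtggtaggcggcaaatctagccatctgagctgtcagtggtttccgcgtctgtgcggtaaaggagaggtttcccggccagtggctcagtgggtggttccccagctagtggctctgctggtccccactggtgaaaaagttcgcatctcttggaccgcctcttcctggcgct

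Ifi202b, chr1:173982845-173983094, minus strand: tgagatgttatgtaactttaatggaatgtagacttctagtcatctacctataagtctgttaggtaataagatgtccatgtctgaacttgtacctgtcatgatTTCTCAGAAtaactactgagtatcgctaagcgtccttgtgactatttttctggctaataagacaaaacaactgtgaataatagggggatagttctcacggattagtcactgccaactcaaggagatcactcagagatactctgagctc

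The matches are a description of letters and not of bound sites, and the absence of the core says only that these letters are not in the window. All printed stretches were read from the GRCm38.p6 build, and the sequence of the BALB/c cells themselves was not looked at.

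Of the 10 genes, 9 passed the filter on low counts and Trex1 did not. Ifi205 passed only because of its level after poly(I:C), since no mock or poly(dA:dT) library reached the filter's 0.447 CPM (taken before TMM scaling). Aim2 reached it in 0 mock, 2 poly(dA:dT) and 3 poly(I:C) libraries, and Mndal in 1, 3 and 3. Genes that pass mainly through 1 group have to be higher there to be tested, so the counts of calls are a description. After poly(dA:dT) 4 of the 9 were called higher than in mock (Cgas, Ifi203, Ifi204 and Polr3a), 0 lower and 5 not called, with an adjusted p under 0.05 in edgeR's quasi-likelihood test. Of all 14176 genes tested, 26.6% were called higher in that comparison and 26.2% lower, 52.8% in all. Of those calls 50.3% were higher, and 67.7% with total counts in place of TMM. None of the 4 rises reached 2-fold, which 3.84% of all genes did. After poly(I:C) 7 of the 9 were called higher than in mock (the same 4 with Aim2, Ifi205 and Mndal), against 39.8% of all genes, 0 were called lower, against 36.3% (76.1% in either direction), and 6 rose at least 2-fold, against 13.1%. Poly(I:C) exceeded poly(dA:dT) in 5 of the 9 (Cgas, Ifi203, Ifi204, Ifi205 and Mndal), against 31.3% of all genes, and by at least 2-fold in 4, against 7.62%. It was lower in 0, against 32.1% (63.4% in either direction). The median log2 fold change of the 9 was 0.38, 1.23 and 0.79 in the 3 comparisons, and that of all genes tested was 0.01, 0.04 and 0. The comparisons share libraries, so their values are given side by side only.

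**Figure D1:**
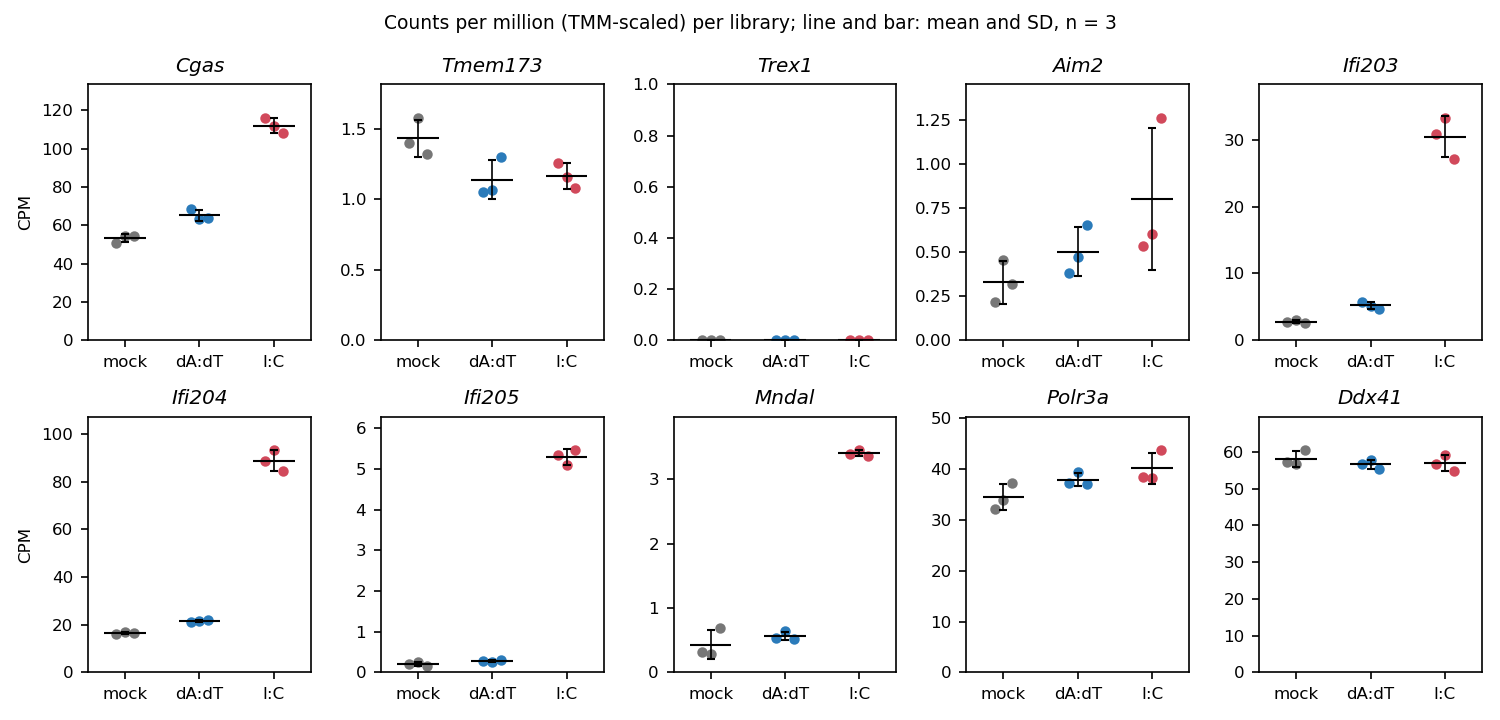
CPM of each gene in each library (points), with the mean (line) and SD (bar) of 3 libraries, for mock, poly(dA:dT) and poly(I:C); every axis starts at 0. Cgas and the Ifi200 genes stood highest after poly(I:C), Ddx41 was level across the groups, and Trex1 is listed at 0 throughout.

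Cgas (ENSMUSG00000032344, chromosome 9, 78430526 to 78443237, minus strand) encodes the enzyme that senses DNA and makes cGAMP. It stood at 50.9, 54.4 and 54.5 CPM in mock, at 68.6, 63.2 and 63.8 CPM after poly(dA:dT), and at 116, 112 and 108 CPM after poly(I:C). The 3 groups did not overlap, and mock was lowest and poly(I:C) highest. Groups also did not overlap in 57.3%, 76.8% and 66.1% of all genes in the 3 comparisons. Cgas rose 1.23-fold after poly(dA:dT) (95% interval 1.16 to 1.3, adjusted p = 1.81e-10, edgeR) and 2.12-fold after poly(I:C) (2.01 to 2.23, adjusted p = 2.52e-61, edgeR). The RNA mimic gave 1.73 times the level that the DNA mimic gave (1.64 to 1.82, adjusted p = 1.38e-45, edgeR). Without strand, reads over the 201 exon bases that Cgas shares with the antisense pseudogene Gm8093, which are 4.87% of its exons, cannot be assigned to either.

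Tmem173 (ENSMUSG00000024349, chromosome 18, 35733679 to 35740554, minus strand) encodes STING, the adaptor that carries the cGAMP signal. Its level was low in every library: 1.4, 1.58 and 1.32 CPM in mock, 1.05, 1.07 and 1.3 CPM under poly(dA:dT), and 1.26, 1.16 and 1.08 CPM with poly(I:C), from 18 to 39 counts each. Each treated library lay below each mock library, by as little as 1.3 against 1.32 CPM. The differences did not pass the test: the level after poly(dA:dT) was 0.798 times that in mock (95% interval 0.557 to 1.14, adjusted p = 0.313, edgeR), and after poly(I:C) 0.818 times (0.567 to 1.18, adjusted p = 0.325, edgeR).

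Trex1 (ENSMUSG00000049734, chromosome 9, 109057933 to 109059734, minus strand) encodes the exonuclease that degrades cytosolic DNA, and it is listed at 0 counts in all 9 libraries. Its count cannot be read as a level. All of its 1147 exon bases in GENCODE M21 (100%) also lie in exons of Atrip on the same strand, and 95.8% of its 50-base words occur in Atrip. Among 74 protein-coding genes whose exons lie wholly in same-strand exons of other genes, 68 (91.9%) were at 0 in every library. Of 15163 protein-coding genes that share no exon base, 3846 (25.4%) were at 0. Atrip itself, which encodes a partner of the DNA damage kinase ATR, stood at 1.72, 1.33 and 1.89 CPM in mock, 1.53, 1.45 and 2 CPM under poly(dA:dT), and 2.57, 2.33 and 2.1 CPM with poly(I:C). Atrip rose 1.43-fold after poly(I:C) (95% interval 1.06 to 1.93, adjusted p = 0.0284, edgeR), and the sources used here do not say how reads of the shared exons were assigned.

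Aim2 (ENSMUSG00000037860, chromosome 1, 173350879 to 173466040, plus strand) encodes the PYHIN protein of the DNA inflammasome. It had between 6 and 21 counts per library, which was 0.215, 0.457 and 0.316 CPM in mock, 0.383, 0.471 and 0.652 CPM under poly(dA:dT), and 0.533, 0.603 and 1.26 CPM with poly(I:C). The poly(I:C) libraries lay above mock, and poly(I:C) replicate 3 was the highest of the 9. Aim2 rose 2.34-fold after poly(I:C) (95% interval 1.31 to 4.19, adjusted p = 0.00713, edgeR). The call rested on single libraries: the log2 fold change was 1.23, but it was 0.8 when poly(I:C) replicate 3 was left out (adjusted p = 0.15) and 0.95 when mock replicate 1 was (adjusted p = 0.0686). After poly(dA:dT) the level was 1.55 times that in mock (0.83 to 2.88, adjusted p = 0.252, edgeR), which did not pass.

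Of the genes listed with the AIM2 inflammasome, some had almost no counts. The adaptor gene Pycard had 2 counts in all 9 libraries and Il1b had 2, and Casp1 stood at 0.387 CPM in mock, below the filter. Of the 7 listed genes, 6 were matched to an identifier and 3 were tested. Casp4, which encodes caspase-11, a sensor of lipopolysaccharide, rose from 8.46 to 14.1 CPM after poly(dA:dT) (1.67-fold) and to 41.5 CPM with poly(I:C) (4.9-fold). Gsdmd, which encodes the pore-forming gasdermin D, rose 1.16-fold after poly(I:C). Il18 was called in neither comparison.

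The remaining PYHIN genes differed most between the mimics. Ifi204 (ENSMUSG00000073489, chromosome 1, 173747293 to 173766943, minus strand) encodes p204, often taken as the mouse counterpart of human IFI16. It stood at 16.1, 17.1 and 16.6 CPM in mock, 21, 21.6 and 21.9 CPM under poly(dA:dT), and 88.8, 93.3 and 84.5 CPM with poly(I:C), with no overlap between groups. It rose 1.3-fold after poly(dA:dT) (95% interval 1.19 to 1.42, adjusted p = 1.45e-07, edgeR) and 5.38-fold after poly(I:C) (5.01 to 5.77, adjusted p = 1.14e-90, edgeR). Its level after poly(I:C) was 4.14 times that after poly(dA:dT) (3.86 to 4.43).

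Ifi203 (ENSMUSG00000039997, chromosome 1, 173920407 to 173942672, minus strand) started lower, at 2.79, 2.95 and 2.63 CPM in mock. It reached 5.7, 5.18 and 4.7 CPM after poly(dA:dT) and 30.9, 33.3 and 27.2 CPM after poly(I:C), again with no overlap. Its rise of 1.85-fold after poly(dA:dT) (95% interval 1.53 to 2.23, adjusted p = 1.66e-08, edgeR) had the highest fitted fold of the 4 called genes. After poly(I:C) Ifi203 rose 10.9-fold (9.49 to 12.6, adjusted p = 4.12e-71, edgeR).

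Ifi205 (ENSMUSG00000054203, chromosome 1, 174011998 to 174031810, minus strand) was near the floor except after poly(I:C). Its counts were 6, 6 and 3 in mock and 6, 6 and 7 after poly(dA:dT), against 110, 118 and 91 after poly(I:C). On the CPM scale these were 0.215, 0.249 and 0.158, then 0.287, 0.257 and 0.304, then 5.33, 5.09 and 5.46. Ifi205 was 24.4 times as high after poly(I:C) as in mock (95% interval 16.5 to 36.1, adjusted p = 1.21e-33, edgeR) and 18.3 times as high as after poly(dA:dT) (12.6 to 26.7). The gene passed the filter on low counts only through its poly(I:C) libraries, so these values are a description. After poly(dA:dT) its level was 1.33 times that in mock (0.652 to 2.71, adjusted p = 0.539, edgeR), which did not pass.

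Mndal (ENSMUSG00000090272, chromosome 1, 173849126 to 173942491, minus strand) had 9, 7 and 13 counts in mock, 11, 15 and 12 after poly(dA:dT) and 70, 80 and 56 with poly(I:C). The CPM values were 0.322, 0.291 and 0.684 in mock, 0.527, 0.642 and 0.522 after poly(dA:dT), and 3.39, 3.45 and 3.36 with poly(I:C). Mock and poly(dA:dT) overlapped, and poly(I:C) stood apart from both. Mndal rose 8.2-fold after poly(I:C) (95% interval 5.57 to 12.1, adjusted p = 9.88e-20, edgeR), and after poly(dA:dT) the level was 1.37 times that in mock (0.799 to 2.35, adjusted p = 0.35, edgeR).

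The PYHIN genes are recent copies of each other, so the split of reads among them is uncertain. Of 50-base words in the exons, 20% of those of Ifi204 occur in another gene, mostly Ifi211, Mndal, Ifi207 or Ifi205. The share was 12.4% for Ifi203, 18.6% for Ifi205 and 19.6% for Mndal, but 0.742% for Aim2. Ifi203 and Mndal also share 37 exon bases. The GENCODE model of Mndal runs on to the Ifi203 start whose window held the core. The RefSeq window of Mndal shown above lies within that Mndal model.

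**Figure D2:**
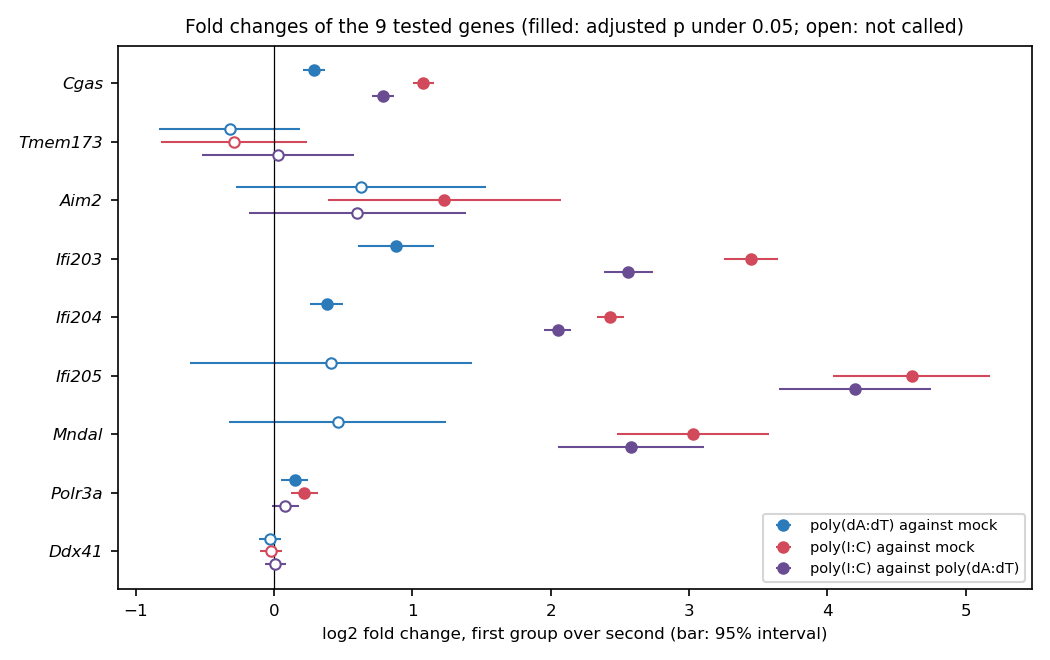
Log2 fold change of the 9 tested genes in the 3 comparisons, with 95% intervals; filled points passed an adjusted p of 0.05 and open points did not. The Ifi200 genes have their red and purple points (poly(I:C) against mock and against poly(dA:dT)) well to the right of the blue ones, and the intervals of Tmem173 and Aim2 are wide.

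The other PYHIN genes of the chromosome 1 cluster were looked at beside the studied ones. Between Aim2 and Ifi205 on chromosome 1 the annotation places 13 PYHIN genes, of which 8 were tested and all 8 were called higher after poly(I:C), where 39.8% of all genes were. This count is a description: Ifi205 passed the filter only through poly(I:C), Aim2 and Mndal partly so, and the call of Aim2 was lost without poly(I:C) replicate 3 (adjusted p = 0.15, edgeR) or mock replicate 1 (adjusted p = 0.0686). After poly(dA:dT) 4 of the 8 were called higher (Ifi203, Ifi204, Ifi207 and Ifi202b) and 0 lower, where 26.6% and 26.2% of all genes were. The 3 tested PYHIN genes beside the studied ones had the following values. Ifi202b, which encodes a family member without a pyrin domain that binds DNA, stood at 30.1 ± 0.951 CPM in mock, 32.9 ± 0.984 after poly(dA:dT) (1.1-fold, adjusted p = 0.0216, edgeR) and 123 ± 4.44 with poly(I:C) (4.1-fold). Ifi207 rose from 0.364 ± 0.151 to 1.49 ± 0.22 CPM after poly(dA:dT), 3.88-fold (95% interval 2.56 to 5.86), and to 11.7 ± 1.22 CPM after poly(I:C), 30.2-fold (23 to 39.7). Ifi211 rose from 7.11 ± 0.135 to 30.7 ± 1.43 CPM after poly(I:C), 4.32-fold, and stood at 8.08 ± 0.766 CPM after poly(dA:dT) (adjusted p = 0.131, edgeR). Of 9 other annotated genes in the interval, 1 was tested, the pseudogene Gm38050, which shares 118 exon bases with Mndal.

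Genes with and without the core upstream of their starts were found among those called higher. Among those near 0, Ifi206, Ifi208, Ifi213 and Ifi214 carry it, and Ifi206 had 0 counts in every library while Ifi214 had 13 counts, all after poly(I:C). Ifi202b, Aim2 and Cgas lack it in their windows and were called higher after poly(I:C).

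**Figure D3:**
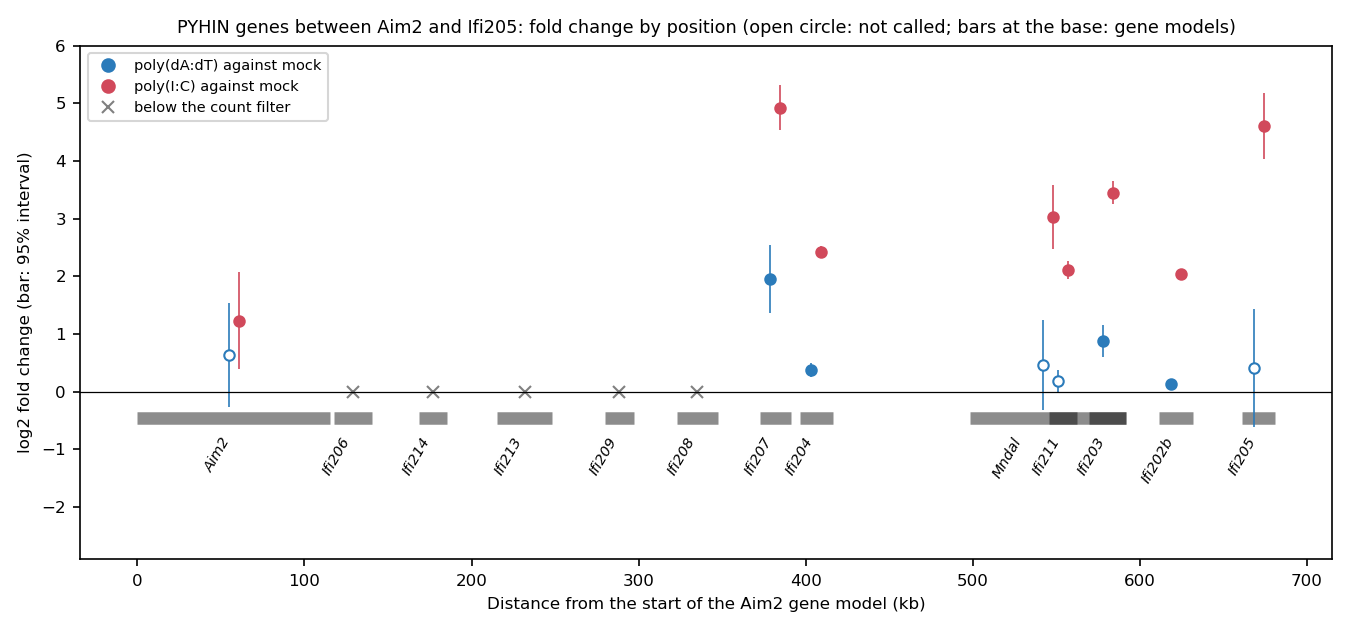
Log2 fold change against mock of the PYHIN genes by distance from the Aim2 gene model's start in kb, with 95% intervals; open circles were not called, crosses were below the count filter, and grey bars are gene models. All 8 tested genes lie above 0 after poly(I:C), and the genes between Aim2 and Ifi207 had too few counts to test.

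Summed over the cluster and per length, PYHIN transcripts stood at 27.1 ± 0.498 RPKM (CPM per kb of merged exons) in mock, 31.6 ± 0.566 after poly(dA:dT) and 125 ± 4.26 with poly(I:C) (SD, n = 3). Ifi202b gave 65.3% of this sum in mock and 57.9% after poly(I:C). Ifi204 gave 17.2% and 20%, and Ifi203 1.53% and 3.63%. Ifi205 stood at 0.183% and 1.01% of the sum and Mndal stood at 0.436% and 0.75%, so both were minor transcripts of the family.

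Polr3a (ENSMUSG00000025280, chromosome 14, 24448696 to 24487058, minus strand) encodes the largest subunit of RNA polymerase III, the enzyme that copies poly(dA:dT) into RNA. It stood at 32.2, 33.9 and 37.3 CPM in mock, 37.3, 39.3 and 37 CPM under poly(dA:dT), and 38.5, 38.2 and 43.7 CPM with poly(I:C). Mock and poly(dA:dT) overlapped at mock replicate 3, and the poly(I:C) libraries lay above mock. Polr3a was called 1.11-fold higher after poly(dA:dT) (95% interval 1.03 to 1.19, adjusted p = 0.0157, edgeR) and 1.17-fold higher after poly(I:C) (1.08 to 1.25, adjusted p = 0.000119, edgeR). The first call was lost with DESeq2 (adjusted p = 0.115). It was also lost in edgeR when mock replicate 1 (adjusted p = 0.193), mock replicate 2 (0.052) or poly(dA:dT) replicate 2 (0.106) was left out. The mimics differed by 1.05-fold (0.98 to 1.13, adjusted p = 0.215, edgeR).

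The other subunits of RNA polymerase III were called in both directions, as all genes were. Of 17 tested, 4 were called higher and 7 lower after poly(dA:dT), where 26.6% and 26.2% of all genes were. After poly(I:C) 4 were called higher and 9 lower, where 39.8% and 36.3% of all genes were. With total counts in place of TMM the split was 6 higher and 5 lower, and 7 higher and 8 lower, and the median after poly(I:C) turned from -0.1 to 0.01, so no direction is given for the group. Polr3c, Polr3d and Polr3e, which are specific to this polymerase, were called 1.11-, 1.11- and 1.1-fold higher after poly(dA:dT) and 1.28-, 1.17- and 1.19-fold higher after poly(I:C). Polr2f and Polr2l, small subunits that polymerases I, II and III share, fell by 0.28 and 0.31 on the log2 scale after poly(dA:dT) and by 0.76 and 0.64 after poly(I:C).

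Ddx41 (ENSMUSG00000021494, chromosome 13, 55530410 to 55536658, minus strand) encodes a DEAD-box helicase proposed to bind DNA upstream of STING. Its level varied little: 57.2, 56.6 and 60.5 CPM in mock, 56.8, 57.8 and 55.4 CPM under poly(dA:dT), and 56.8, 59.1 and 54.8 CPM with poly(I:C). The groups overlapped in both comparisons with mock. The level was 0.978 times that in mock after poly(dA:dT) (95% interval 0.924 to 1.04, adjusted p = 0.559, edgeR) and 0.984 times after poly(I:C) (0.928 to 1.04, adjusted p = 0.631, edgeR). With total counts in place of TMM the log2 fold change after poly(I:C) turned from -0.02 to 0.09 (adjusted p = 0.0464, edgeR). Ddx41 shares 467 exon bases (17.4%) with the antisense gene Gm46416, whose reads cannot be told apart without strand.

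Levels of different genes were set against each other per length. In mock Ddx41 was highest at 21.6 ± 0.791 RPKM, followed by Cgas (12.9 ± 0.499), Polr3a (5.91 ± 0.44), Ifi204 (4.66 ± 0.145), Tmem173 (0.522 ± 0.049) and Ifi203 (0.416 ± 0.0236). Mndal (0.119 ± 0.0603) and Aim2 (0.094 ± 0.0347) overlapped, and Ifi205 was at 0.0496 ± 0.011. After poly(dA:dT) the order of the first 4 was kept, and Ifi203 (0.774 RPKM) passed Tmem173 (0.417 RPKM). After poly(I:C) Cgas (27.2 ± 0.945 RPKM) and Ifi204 (25 ± 1.22 RPKM) stood above Ddx41 (21.2 RPKM). Ifi205 (1.27 RPKM) then stood above Mndal (0.937), Tmem173 (0.426) and Aim2 (0.228). In every group the RPKM of Tmem173 was far below that of Cgas. With the longest transcript as length Ifi204 ranked above Polr3a in mock and after poly(dA:dT) and above Cgas after poly(I:C), Ifi203 above Tmem173 in mock, and Mndal above Ifi205 after poly(I:C).

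**Figure D4:**
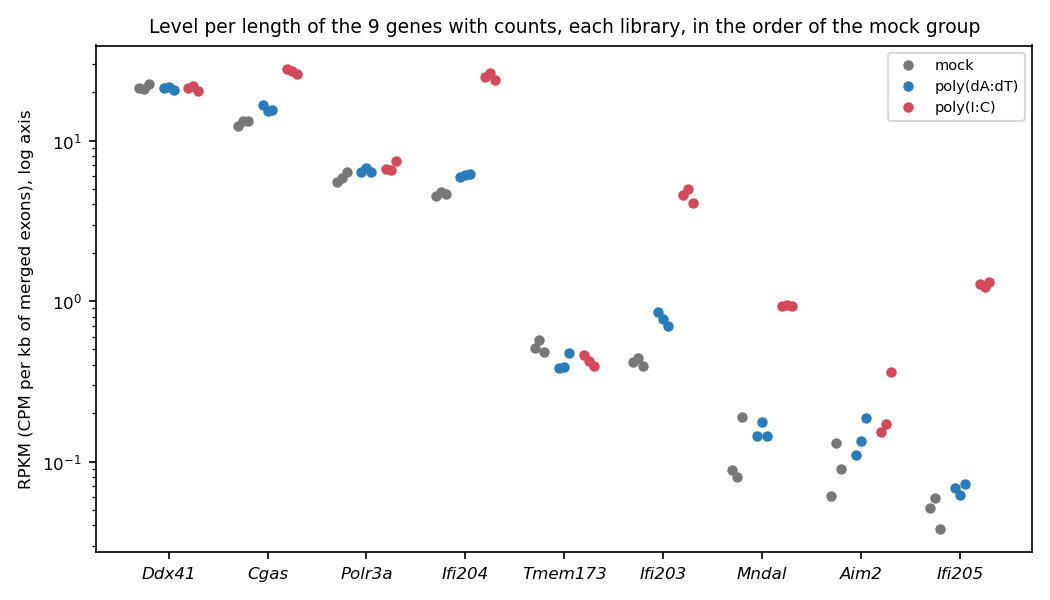
RPKM on a log axis of the 9 genes with counts, each point 1 library, ordered by level in mock. Ddx41 and Cgas are the highest in mock, and Ifi203, Ifi205, Mndal and Ifi204 shift upward after poly(I:C) (red) while Tmem173 shows no such shift.

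Other genes of the pathway were called in both directions, at shares near those of all genes. Of 77 listed symbols 64 were tested. After poly(dA:dT) 21 were called higher and 18 lower (26.6% and 26.2% of all genes), and after poly(I:C) 28 higher and 23 lower (39.8% and 36.3% of all genes). Of the 19 tested genes of STING signalling and its regulators, 7 were called higher and 4 lower after poly(dA:dT), and 10 higher and 7 lower after poly(I:C). With total counts the splits were 9 higher and 3 lower, and 12 higher and 5 lower. Ikbke, which encodes a kinase related to TBK1, rose 1.82-fold and 4.37-fold. Usp18, a protease that removes ISG15 and restrains interferon signalling, rose from 0.793 to 6.06 CPM after poly(dA:dT) (7.51-fold) and to 106 CPM with poly(I:C) (132-fold). Trim32, a ubiquitin ligase, rose 1.4-fold after poly(dA:dT) and 1.56-fold after poly(I:C). Trim30a, with 3 mock counts, reached a ratio of 121 to mock after poly(I:C) (95% counting interval 41 to 590). Trim56, another ubiquitin ligase, named after its values were seen, rose 1.08-fold and 3.54-fold. The ubiquitin ligase genes Rnf26 and Rnf5 fell, Rnf26 by 0.33 and Rnf5 by 0.36 on the log2 scale after poly(dA:dT), and by 1.07 and 0.72 after poly(I:C).

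Of 9 tested nucleases and limiters of self DNA or RNA, 1 was called higher and 2 lower in the DNA mimic group. Of all genes tested, 26.6% were called higher there and 26.2% lower. The RNA mimic group had 3 of the 9 called higher and 2 lower, against 39.8% and 36.3% of all genes. With total counts the splits of the 9 were 3 higher and 2 lower, then 5 higher and 2 lower. Adar, an RNA-editing enzyme, rose 1.46-fold and 3.27-fold. After poly(I:C) Samhd1, which depletes nucleotide pools, rose 1.23-fold and Skiv2l, an RNA helicase of the exosome, 1.06-fold. Rnaseh2c, a subunit of RNase H2, fell by 0.46 after poly(dA:dT) and by 0.96 after poly(I:C) on the log2 scale. Banf1, whose product coats DNA, fell by 0.25 and 0.5.

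Of 13 other proposed DNA sensors, 6 were called higher and 5 lower in both comparisons with mock, in which 52.8% and 76.1% of all genes were called in either direction. Zbp1, a sensor of Z-form nucleic acid, had 3 counts in mock. Its ratio to mock was 9.15 after poly(dA:dT) (95% counting interval 2.81 to 47.2) and 158 with poly(I:C) (53.8 to 772). Prkdc, the catalytic subunit of DNA-PK, rose 1.46-fold and 1.91-fold, and Rad50, of the MRE11 complex, 1.12-fold and 1.29-fold. The nuclear DNA-binding protein gene Hmgb1 fell by 0.3 and 0.75 on the log2 scale, and Hnrnpa2b1 by 0.22 and 0.43. Pqbp1, which has been linked to cGAS, fell by 0.19 and 0.48.

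The response genes of the pathway gave the scale on which these values stand. Of 8 tested, 7 were called higher after each mimic, where 26.6% (poly(dA:dT)) and 39.8% (poly(I:C)) of all genes were. The adaptor gene Mavs was not called against mock, which depended on the scaling. With total counts in place of TMM, 8 of the 8 were called higher after poly(dA:dT). With DESeq2 size factors 7 were called higher and 1 lower after poly(I:C). This list was chosen with earlier results of these data known, so its count is a description. Ifit1 rose from 1.29 to 124 CPM after poly(dA:dT) (96.2-fold) and to 1180 CPM with poly(I:C) (914-fold). The RNA sensor gene Ifih1 rose 6.45-fold and 53-fold, and Ddx58 2.18-fold and 11.6-fold. The chemokine gene Ccl5 rose 28.2-fold and 327-fold. Ifnb1 was 18.3 times as high after poly(I:C) as after poly(dA:dT) (95% interval 16.5 to 20.1).

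**Figure D5:**
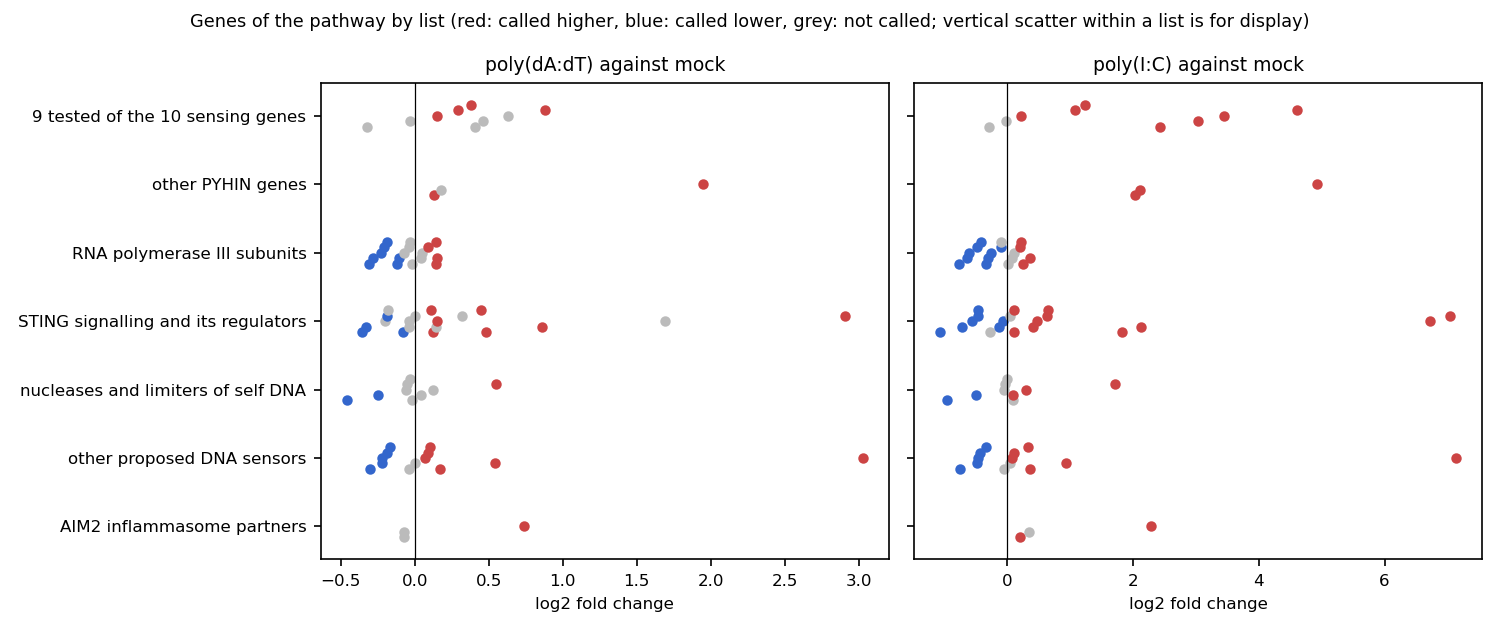
Log2 fold change against mock of each tested gene by list, after poly(dA:dT) (left) and poly(I:C) (right, wider axis); red was called higher, blue lower, and grey not called. RNA polymerase III subunits and other proposed DNA sensors lie on both sides of 0, and the studied genes and other PYHIN genes that were called lie to the right.

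Among markers of other cell types, the macrophage and endothelial sums moved with the treatments at low levels. The lymphocyte and epithelial sums overlapped between the groups. PYHIN genes are known from myeloid cells, and the summed level of 10 macrophage markers was 10.5 to 11.3 CPM in mock, 8.57 to 8.77 after poly(dA:dT) and 5.76 to 7.8 after poly(I:C), with Ptprc and Tyrobp at 0 in all 9 libraries. In mock, Cd14 (6.3 CPM) and Cd68 (3.14 CPM) made up most of the macrophage sum. Lymphocyte markers summed to at most 0.192 CPM in any library, and 5 of 8 were at 0 in all. Endothelial markers (6 genes) ranged from 0.789 to 1.11 CPM in mock, 2.74 to 3.25 after poly(dA:dT) and 4.65 to 4.96 after poly(I:C), with Emcn at 0 in all 9. Their part in the rises of the studied genes was not tested. The 6 epithelial markers ranged from 9.13 to 10.5, 8.74 to 9.68 and 8.96 to 9.46 CPM, and Krt18 (7.98 CPM in mock) made up most of the mock sum. Their sum hid changes of single markers. Of 3 tested, 2 were called higher after poly(I:C), both by at least 2-fold, and 1 lower. Of all genes, 39.8% and 36.3% were called so, and 0 of the 3 were called after poly(dA:dT).

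For each studied gene the transcripts whose log2 CPM followed it best over the 9 libraries were found among 11541 genes, as a description, since the libraries share 3 treatments. For Cgas these were Ddx39b and N4bp1 (Pearson r = 0.998 for both), and 1140 genes exceeded 0.95. For Ifi203 they were Nos2 (0.999) and Cxcl1 (0.998), for Ifi204 Plscr2 (0.999) and Gbp2 (0.998), for Ifi205 Trim56 (0.999) and Clic4 (0.997), and for Mndal Cilp2 (0.994) and Ccser1 (0.993). Genes over 0.95 numbered 1143 for Ifi203, 896 for Ifi204, 703 for Ifi205 and 548 for Mndal. Matches were weaker for the remaining tested genes: Lgals2 (0.919) for Tmem173, and Ccr10 (0.942) and Cox11 (0.937) for Aim2. They were Arnt (0.949) and Elac1 (0.944) for Polr3a, and Lrrc8c (0.931) and Tiam1 (0.873) for Ddx41. Ranked by Spearman's rho instead, 3 of the 18 leading genes were named again.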

How the data were processed

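The authors deposited 1 table of whole-read counts by Ensembl gene for each library, and these counts were used unchanged. The submitters' processing notes name HTSeq, DESeq2, TopHat2 2.1.0 and the GRCm38.p4 build. The sources used here do not give the annotation release, strand setting or handling of multi-mapping reads. Per the labels' protocols, libraries came from a TruSeq v2 kit, which does not mark strand. GENCODE M21 named 46005 of 46603 identifiers, and the other 598 held 0.0914% of counts.

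All 9 libraries entered 1 edgeR 4.0.16 quasi-likelihood fit (R 4.3.3, robust, two-sided, TMM, filterByExpr with a minimum count of 10), with 6 residual degrees of freedom and 14176 genes tested. P-values were Benjamini-Hochberg adjusted over all of them, and called means under 0.05. Log2 fold changes used a prior count of 0.125, and intervals are 95%. A ratio to a group with 1 to 3 counts carries a counting interval. Such intervals and the limits at 0 counts cover counting error alone, because the reads carry no molecular identifiers and may be copies. The code was tested on simulated data.

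Nothing in the labels tells if replicates were separate cultures, and p-values then cover only how much these libraries differ, and that may be technical. Replicate pairs differed by more than sampling noise (chi-square per degree of freedom 1.64 to 2.14). The genes and lists were chosen with earlier results of these data known. Genes named are the 10 studied genes, Actb, Ifnb1, Ifit1, Ifih1 and Ddx58, up to 3 rises and 2 falls per list and comparison with mock, ordered by size, and the 2 best matches in pattern. One of those matches is not reported here. Alternatives were other scalings, DESeq2 1.42.0, other filters, only the groups compared, a replicate block and leaving out each library. Promoter windows came from RefSeq (GRCm38.p6).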

Additional observations from a re-analysis of the deposited data

How the results depend on the processing

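With total counts in place of TMM, the median log2 fold change of all genes after poly(I:C) moved from 0.036 to 0.151. Ddx41 turned from -0.02 to 0.09 (adjusted p = 0.0464, edgeR), which lies below that median. Genes called lower after poly(dA:dT) fell from 3721 to 2389, and the share of calls that were higher went from 50.3% to 67.7% (from 52.4% to 62.2% after poly(I:C)). DESeq2 called 13 other pathway genes higher after poly(dA:dT) in place of 21, and the cause was not tested. Likeness by Spearman's rho named 3 of the 18 genes again. A filter of 50 counts in 3 libraries left 11717 genes and no test of Aim2 or Tmem173, and a fit of only poly(dA:dT) and mock did not test Ifi205. The calls of Polr3a in the DNA mimic group and of Aim2 in the RNA mimic group were lost in the settings named beside them.

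Leaving out 1 library at a time, genes called higher and lower ranged from 3411 to 3576 and from 3405 to 3601 after poly(dA:dT), from 5425 to 5615 and from 4962 to 5125 with poly(I:C), and from 4140 to 4263 and from 4302 to 4443 between the mimics. Studied genes called higher ranged from 3 to 4, 6 to 7 and 5 to 5. A replicate block changed no call of a studied gene: 4, 7 and 5 were higher with it, and 3723 and 3661 genes were called higher and lower after poly(dA:dT), 5615 and 5109 with poly(I:C), and 4381 and 4524 between the mimics. Same-numbered libraries did not deviate together (r from -0.0138 to 0.0225), and 3 of 9 correlated best with their own number. No pairing by number was seen, and with 3 libraries per group these values cannot settle whether the numbers pair the samples. Of 1258 values of named pathway genes under alternatives, 1227 stayed on their side of the threshold, 22 lost a call, 9 gained one and 0 reversed. Depth limits Tmem173, Aim2, Ifi205 and Mndal, whose mock libraries held 3 to 39 counts.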
